A study of Mus musculus with 8 samples.

Results

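Igf2, H19, the 3 Igf2 mRNA-binding proteins Igf2bp1, Igf2bp2 and Igf2bp3, Lin28b and Hmga2 were followed in thymic epithelial cells (TEC), the stromal cells on which thymocytes mature. The members were taken by gene symbol, 7 of the 27514 genes that the count matrices of all 8 libraries share. The libraries were single-cell RNA-seq of viable EpCAM+ CD45- cells sorted from the thymus of WT C57 B6 (CD45.2) mice, with no transgene, deletion or treatment in any of them. One library held total TEC of the embryonic stage E13.5, and Ly51+ UEA-1- cortical TEC (cTEC) came from E15.5, E17.5, newborn (NB) and adult mice. Adult cTEC had 2 libraries, as had adult Ly51- UEA-1+ medullary TEC (mTEC), and each younger age had 1. The E13.5 library was sorted without Ly51 and UEA-1, so age and sort cannot be told apart between it and the later libraries. The study's methods also differ by age in how tissue was prepared. Embryonic thymi were dissociated in trypsin and EDTA and not enriched, while newborn and adult thymi were digested with Liberase and DNase and enriched on Percoll. Between the fetal and the postnatal libraries, and in slopes over age, age and preparation cannot be told apart either. By the study's methods NB mice were 0 to 2 days old and adults usually 4 to 6 weeks, of either sex, and how many animals each library pooled is not given in the sources used here.

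The labels place the libraries in 2 sets that were counted against different gene lists. E13.5, E15.5, NB and the first adult cTEC and mTEC libraries (replicate 1) form data set 1, and E17.5 and the second adult libraries (replicate 2) form data set 2. After filtering, 25435 cells were used, from 493 in adult cTEC replicate 1 to 8350 at E17.5, with 2158499 to 89998087 UMIs (unique molecular identifiers, each counting one captured RNA molecule) in a library. Pairs of libraries shared 0 to 61 cell barcodes. The epithelial gene Epcam lay between 305 and 1000 CPM (UMIs of a gene per 1000000 UMIs of the library) in all 8 libraries. The cortical proteasome gene Psmb11 lay between 239 and 1474 CPM in the E13.5 and cTEC libraries against 3.85 and 8.57 CPM in adult mTEC. Aire, the medullary regulator of tissue-restricted genes, lay at 435 and 399 CPM in adult mTEC and at no more than 9.27 CPM elsewhere. Adult cTEC replicate 1 stood apart in other medullary RNA: the 7 mTEC markers, Aire among them, summed to 6038 CPM in it, 5398 CPM of which was the chemokine gene Ccl21a, against 1232 CPM in replicate 2, 165 to 869 CPM at the younger ages, and 9209 and 4839 CPM in adult mTEC. The slopes over age are therefore also given without it. In the adult comparison, leaving it out leaves 1 cTEC library, so levels are given by data set there.

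As background, Igf2 is a growth factor of the insulin family that drives fetal growth, and H19 is a long noncoding RNA from the neighbouring locus. The pair is imprinted, Igf2 being read from the paternal and H19 from the maternal chromosome, and both are silenced in most tissues after birth. Igf2bp1, Igf2bp2 and Igf2bp3 are RNA-binding proteins that steer the stability and translation of bound mRNAs, Igf2 among them. Lin28b blocks the maturation of let-7 microRNAs, and Hmga2, a chromatin protein that bends DNA, is a classical let-7 target. Most of these genes are called oncofetal because they are active in embryos, silent in most adult tissues and active again in some tumours.

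On mouse build GRCm38 all 7 genes lie on the minus strand. Igf2 (chr7:142650766-142666816) and H19 (chr7:142575529-142578143) are 72.62 kb apart, Igf2bp1 is at chr11:95957163-96005940, Igf2bp2 at chr16:22059009-22163299 and Igf2bp3 at chr6:49085223-49214957. Lin28b (chr10:45376620-45486395) and Hmga2 (chr10:120361275-120476469) share a chromosome. Because the 5 protein-coding members other than Igf2 carry let-7 seed matches, these sequences are shown first. In RefSeq (GRCm38.p6), 9 mature microRNAs share the let-7 seed, which is set in capitals here and covers bases 2 to 8. 3 of them are

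mmu-let-7a-5p: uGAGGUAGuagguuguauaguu

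mmu-let-7g-5p: uGAGGUAGuaguuuguacaguu

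mmu-miR-98-5p: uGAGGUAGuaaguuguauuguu

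The complement of the seed, CTACCTC, was searched on the transcribed strand in the longest annotated 3′ UTR of each gene (GENCODE M21). Hmga2, Lin28b and Igf2bp1 each held 4 matches. Igf2bp2 and Igf2bp3 held 1 each, Igf2 held 0, and none of the 7 H19 transcripts held one. Of 20937 genes with a 3′ UTR, 9.06% held at least 1 match. Among UTRs within 25% of the same length, 0.138% held as many as Hmga2, 0.238% as many as Lin28b and 0.264% as many as Igf2bp1. The single matches of Igf2bp2 and Igf2bp3 were common by this measure, at 11.5% and 12.9%. The first match of each gene, with the seed complement in capitals, is given with its place on the minus strand of GRCm38. A match is a description of sequence only, and no microRNA was measured in these libraries.

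Hmga2, chr10:120364224-120364246: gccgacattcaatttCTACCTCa

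Lin28b, chr10:45381022-45381044: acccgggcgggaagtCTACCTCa

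Igf2bp1, chr11:95961778-95961800: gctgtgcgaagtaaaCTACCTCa

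Igf2bp2, chr16:22059473-22059495: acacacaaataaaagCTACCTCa

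Igf2bp3, chr6:49086787-49086809: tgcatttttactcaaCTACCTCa

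All 7 genes were highest at E13.5, Lin28b within counting error of one adult mTEC library, and they then parted. Igf2, H19, Igf2bp1 and Hmga2 dropped steeply between the E13.5 and the later cortical libraries, Igf2bp2 dropped more slowly, and Igf2bp3 stayed within 43.9 to 120 CPM in all 6 E13.5 and cortical libraries. Lin28b had few UMIs at every age. Igf2bp2 and Igf2bp3 had fewer CPM in adult mTEC than in adult cTEC. Igf2bp1, and in data set 2 H19 and Lin28b, had more CPM in adult mTEC, from few cells. All intervals are 95% exact intervals that cover counting error only, since each age below the adult had a single library. The lists that the study drew from E13.5 and NB cells of these same libraries contain Igf2, Igf2bp1, Igf2bp3 and Hmga2, so a difference of these genes between those libraries is not independent evidence.

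**Figure D1:**
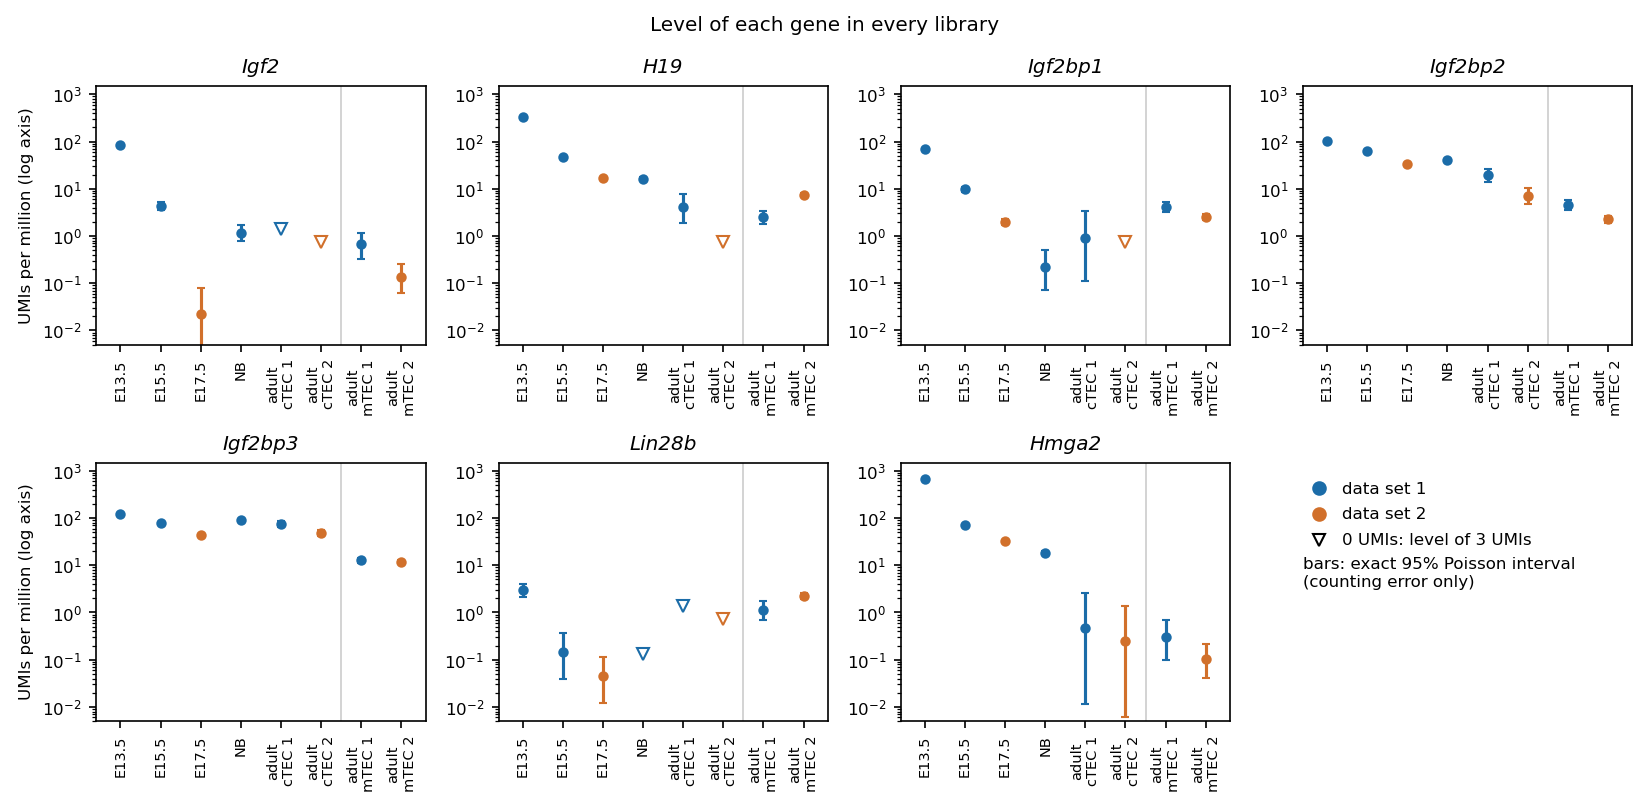
Level of each of the 7 genes (CPM, log axis) in each of the 8 libraries, in order of age and sort; points are libraries, bars the 95% Poisson intervals of their UMIs, and open triangles mark libraries with 0 UMIs at the level of 3 UMIs. Hmga2 runs from 656 CPM at E13.5 to under 1 CPM in the 4 adult libraries, while Igf2bp3 stays between 43.9 and 120 CPM in the E13.5 and cortical libraries.

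Igf2, the ligand of the group, had 1242 UMIs at E13.5, which is 85.8 CPM (81.1 to 90.7). It had 4.37 CPM at E15.5 (120 UMIs), 1.17 CPM in the NB library (27 UMIs) and 0 UMIs in adult cTEC replicate 1, where 3 UMIs would have been 1.39 CPM. Adult mTEC replicate 1 held 0.662 CPM (11 UMIs). Within data set 1, the level at E13.5 was thus 19.7-fold that at E15.5 (16.3 to 23.9) and 73.5-fold that in the NB library (50.3 to 112). The libraries of data set 2 held 2 UMIs at E17.5 (0.0222 CPM), 0 in adult cTEC replicate 2 and 9 in adult mTEC replicate 2 (0.134 CPM). Their gene list includes Gm49394, a gene model on the strand of Igf2 that covers 62.8% of its exonic bases and 997 of the last 1000 bases at its 3′ end, the end these libraries read. The gene list of data set 1 lacks this model. Reads that match both are not assigned by the counter, so Igf2 levels cannot be compared between the sets.

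H19 had 4763 UMIs at E13.5, or 329 CPM (320 to 338 CPM). It lay at 46.5 CPM at E15.5, 17.1 CPM at E17.5 and 16.03 CPM in the NB library, the last pair within counting error of each other. In cells with no UMI of the 8 mesenchymal markers described below, these 2 levels were 15.4 CPM (14.6 to 16.3) and 7.53 CPM (6.37 to 8.85), which do differ beyond it. In adult cTEC replicate 1 it had 4.17 CPM, all 9 UMIs of which came from 1 cell, and in replicate 2 it had 0 UMIs in 535 cells, where 3 UMIs would be 0.743 CPM. Adult mTEC held 2.53 CPM (42 UMIs) and 7.50 CPM (505 UMIs). The drop was 7.08-fold from E13.5 to E15.5 (6.65 to 7.53) and 2.90-fold from E15.5 to NB (2.58 to 3.27).

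Igf2bp1 had the largest ratio of E13.5 to NB of the 6 members with UMIs in both, 316-fold (135 to 976). It had 68.3 CPM at E13.5 (989 UMIs), 9.86 CPM at E15.5, 1.97 CPM at E17.5 and 0.216 CPM in the NB library, where 5 UMIs were left in 3436 cells. The adult cTEC libraries held 2 UMIs (0.927 CPM) and 0 UMIs, and the adult mTEC libraries 68 UMIs (4.09 CPM) and 173 UMIs (2.57 CPM). From E15.5 to NB it was 45.6-fold lower (19.3 to 142), against 3.82-fold for Hmga2 (3.44 to 4.25) and 2.90-fold for H19 over the same libraries. Both adult mTEC libraries lay above NB cTEC and above adult cTEC replicate 2.

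Igf2bp2 had 104 CPM at E13.5, 64.5 CPM at E15.5, 34.0 CPM at E17.5 and 40.6 CPM in the NB library. Adult cTEC held 19.5 and 7.18 CPM (42 and 29 UMIs) and adult mTEC 4.57 and 2.27 CPM. Each adult library lay below each younger one. Igf2bp3 had 120 CPM at E13.5, 78.7 CPM at E15.5, 43.9 CPM at E17.5, 90.6 CPM in the NB library, and 74.6 and 48.5 CPM in adult cTEC. Over both data sets its adult cTEC libraries thus fell among the younger cortical ones, and NB was above E15.5, the ratio of E15.5 to NB being 0.869 (0.817 to 0.923). Within data set 1, adult cTEC was the lowest of the E13.5 and cortical libraries, though within counting error of E15.5. There E13.5 had 1.61 times its level (1.37 to 1.90) and NB 1.21 times (1.03 to 1.435). Within data set 2, E17.5 had 0.905 times the adult cTEC level (0.784 to 1.05). In adult mTEC Igf2bp3 had 12.7 and 11.97 CPM, below every cortical library. The 3 paralogs therefore kept different levels in adult cTEC, from at most 2 UMIs in a library for Igf2bp1 to 161 and 196 UMIs for Igf2bp3.

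Lin28b, the let-7 inhibitor, had 43 UMIs in 39 cells at E13.5 (2.97 CPM). It had 4 UMIs in the E15.5 library (0.146 CPM), as it had in that of E17.5 (0.0444 CPM), and 0 in the NB and both adult cTEC libraries, where a floor of 3 UMIs is 0.130, 1.39 and 0.743 CPM. The E13.5 level was 20.4-fold that of E15.5 (7.42 to 78.3) and at least 22.9-fold that of NB, against a floor of 3 UMIs per library. Adult mTEC held 19 UMIs (1.14 CPM) and 151 UMIs (2.24 CPM, 1.90 to 2.63), and the second of these did not differ from E13.5 beyond counting error.

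Hmga2 was the most abundant member at E13.5, with 9493 UMIs and 656 CPM (643 to 669 CPM). It had 70.0 CPM at E15.5, 32.1 CPM at E17.5 and 18.3 CPM in the NB library. Both adult cTEC libraries held 1 UMI each (0.463 and 0.248 CPM), and the adult mTEC libraries 5 and 7 UMIs (0.301 and 0.104 CPM), 4 values that did not differ beyond counting error. NB cTEC had 39.6 times the level of adult cTEC replicate 1, with an interval of 7.06 to 1566 that reflects the single adult UMI. Levels of different genes are compared here only as UMIs of 3′ ends, which do not scale with transcript length.

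The levels came with a change in how many cells held each RNA. Each cell was thinned to 3000 UMIs at random so that depth was equal, which left out between 9 and 212 shallower cells per library, among them 152 of the 493 in adult cTEC replicate 1. At E13.5, 76.7% of 1815 thinned cells held an Hmga2 UMI, 53.4% an H19 UMI, 29.3% Igf2bp3, 27.2% Igf2bp2, 19.8% Igf2, 18.6% Igf2bp1 and 0.882% Lin28b. At E15.5 the share for Hmga2 was 16.8%, for H19 9.90%, for Igf2bp3 21.5% and for Igf2bp2 17.9%. In NB cTEC Hmga2 was found in 5.55% of cells, H19 in 2.67% and Igf2bp3 in 23.2%. The most frequent member was thus Hmga2 at E13.5 and Igf2bp3 in every later library. Without thinning, 36.1% of E13.5 cells held an Igf2 UMI.

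The UMIs per positive cell differed as well, and are given after the same thinning. Cells with Hmga2 held 2.47 UMIs of it at E13.5 on average, and the means of the E15.5, E17.5 and NB libraries were 1.21, 1.09 and 1.05. For H19 the means of these 4 libraries were 1.94, 1.36, 1.27 and 2.10, and those of adult mTEC were 1.71 and 2.79. Without thinning, the mean of Hmga2 at E13.5 was 5.72, and H19 had 3.37 at E13.5 and 4.67 and 3.63 in adult mTEC. In adult mTEC replicate 1, the 5 cells with the most H19 held 90.5% of its UMIs, and leaving out the top cell brought the level from 2.53 to 1.14 CPM. For Igf2bp1 in the same library the top 5 cells held 70.6%, and the level was 3.19 CPM without the top cell. In replicate 2 the corresponding shares were 41.2% for H19 and 26.0% for Igf2bp1.

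The members present in each thinned cell were also counted, with Igf2 nearly uncounted in data set 2 as described above. At E13.5 the median cell held 2 of the 7 RNAs, 39.7% of cells (37.5 to 42.0) held 3 or more, and 4.41% held none. At E15.5 the median was 1, and 2.15% of cells held 3 or more. For the E17.5 and NB libraries the shares were 0.353% and 0.390%, and no adult cell held 3, in 341 to 5403 cells per library. The share of cells with none of the 7 was 47.0% at E15.5, 68.9% at E17.5, 62.8% in the NB library, 76.2% and 86.1% in adult cTEC and 93.5% and 93.4% in adult mTEC.

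**Figure D2:**
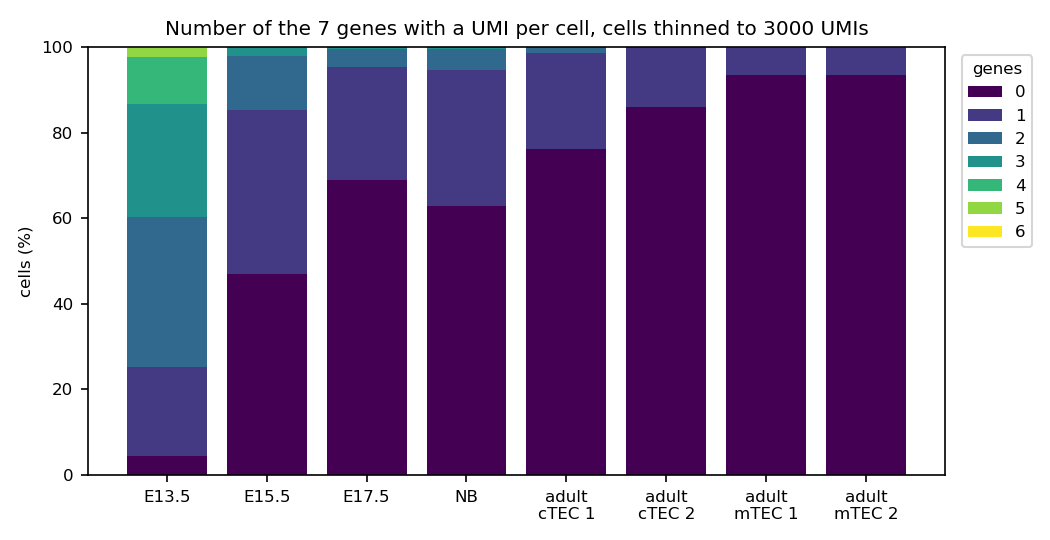
Share of cells (percent) in each library that held a UMI of 0 to 6 of the 7 genes, as stacked bars, after every cell was thinned to 3000 UMIs. Cells with at least 3 make up 39.7% at E13.5 and 2.15% at E15.5, and are absent from the 4 adult libraries.

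A slope over the stages was tested across all genes in the 6 E13.5 and cortical libraries, with edgeR's quasi-likelihood test and Benjamini-Hochberg adjustment. Of 14342 genes tested, 398 or 2.78% were lower with age and 685 or 4.78% higher at an adjusted p below 0.05. Of the 7 members, 6 passed the filter on low counts, Lin28b being left out, and 5 of these 6 fell with age. Igf2 is among the 5, although its levels cannot be compared between the data sets. Igf2, Igf2bp1 and Hmga2 had at most 2 UMIs in either adult cTEC library, so they passed the filter through younger libraries. The median slope of the 6 was -1.76 log2 units per stage, beside -0.000404 for all genes tested. These counts describe a set that was named for fetal expression, partly from these libraries.

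By edgeR the slopes per stage were -2.36 for Igf2bp1 (SE 0.305, adjusted p = 0.012), -2.02 for Igf2 (SE 0.292, adjusted p = 0.0174), -1.98 for Hmga2 (SE 0.305, adjusted p = 0.0202) and -1.55 for H19 (SE 0.263, adjusted p = 0.0249). Igf2bp2 had a smaller slope of -0.63 (SE 0.131, adjusted p = 0.0406). Igf2bp3 did not pass, at -0.09 (SE 0.0822, adjusted p = 0.536). Because the 2 gene lists count Igf2 differently, its slope was also fitted by edgeR within data set 1, at -2.03 (adjusted p = 0.0367). The only adult library of that fit is adult cTEC replicate 1, with 0 Igf2 UMIs, and without it the slope was -2.01 and the call was lost (edgeR adjusted p = 0.139), as were all others of that fit, with 2631 genes at an unadjusted p below 0.05.

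The calls rested on few libraries. Without adult cTEC replicate 1, 16 genes in all passed by edgeR, and Igf2, H19, Igf2bp2 and Hmga2 no longer did (adjusted p = 0.155, 0.192, 0.239 and 0.156), with slopes of -1.98, -1.55, -0.60 and -1.82. Without replicate 2, 460 genes passed and Igf2bp2 lost its call (-0.53, adjusted p = 0.0718). Without E13.5, Igf2 lost its call (-1.24, adjusted p = 0.114), while H19, Igf2bp1, Igf2bp2 and Hmga2 still passed.

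Other genes of the pathways were read against the same shares, 4.78% higher and 2.78% lower. Of 12 tested genes of the IGF axis (Igf1, the receptors Igf1r, Igf2r and Insr, Irs1 and Irs2, and Igfbp2 to Igfbp7), 1 rose and 0 fell. It was Igfbp7, a secreted IGF-binding protein found in stroma and vessels, with a slope of 2.94 (edgeR adjusted p = 0.00874) and 68.6 and 248 CPM in adult cTEC against 0.0691 CPM at E13.5. Of 13 genes of the Lin28 and let-7 axis, which held the processing enzymes Dicer1 and Drosha and known let-7 targets, 1 fell. It was Mycn, a transcription factor of the Myc family, with a slope of -1.21 (edgeR adjusted p = 0.0471) and a level of 6.22 CPM at E13.5 and at most 1.36 CPM in the later cortical libraries. None of 12 readers and writers of m6A, the mRNA mark that the Igf2bp proteins bind, passed in either direction. A single call among 12 or 13 genes is near the share of all genes. Without adult cTEC replicate 1 neither gene passed, Igfbp7 having a slope of 2.48 (edgeR adjusted p = 0.115) and Mycn one of -1.13 (edgeR adjusted p = 0.196). Without replicate 2 Igfbp7 passed (2.82, edgeR adjusted p = 0.0316) and Mycn did not (edgeR adjusted p = 0.0954).

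Of 13 tested genes of an imprinted growth network, 4 fell and 0 rose, beside 2.78% lower among all genes, the median slope being -0.70. Without adult cTEC replicate 1 none of the 13 passed by edgeR, where 16 of all genes did, and the median slope was -0.64; without replicate 2, 3 fell. Dlk1, a Notch-related membrane protein, had a slope of -1.53 (edgeR adjusted p = 0.0243, and 0.156 without adult cTEC replicate 1), with 19.3 CPM at E13.5, 2.58 CPM at E15.5 and 0 in adult cTEC, yet 39.7 and 22.8 CPM in adult mTEC. Cdkn1c, an inhibitor of the cell cycle, had a slope of -1.12 (edgeR adjusted p = 0.0463, and 0.252 without that library), with 248 CPM at E13.5, 93.8 CPM at E15.5, 227 CPM at E17.5, 42.0 CPM in NB and 14.8 and 8.91 CPM in adult cTEC.

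Within the E13.5 library the members did not mark the same cells. This library also held a cluster of 124 parathyroid-like cells, which was left out of all levels above, and 105 cells with thyroid markers, which were kept. In the parathyroid-like cells Igf2 lay at 274 CPM, H19 at 739 CPM and Hmga2 at 141 CPM. Cells with thyroid markers had 172 CPM of Igf2, 129 CPM of Igf2bp1 and 617 CPM of Hmga2. They also held Lum at 208 CPM and Dcn at 142 CPM, 2 genes of the mesenchymal list, which summed to 355 CPM in them and to 6.86 CPM in the parathyroid-like cells. The remaining cells were divided by a UMI of Psmb11 or Prss16, which encodes a cortical protease. The 1495 cells with one had 64.1 CPM of Igf2 and 295 CPM of H19. The 257 cells without had 191 CPM of Igf2 and 516 CPM of H19. The mesenchymal list summed to 8.99 CPM in the former and 51.97 CPM in the latter, there nearly all Lum and Dcn, and its part in these levels was not tested. Hmga2 was 661 and 633 CPM in these 2 classes, Igf2bp2 105 and 104 CPM, and Igf2bp3 120 and 121 CPM. By this split, Igf2 and H19 were higher in the cells without cortical transcripts, and Hmga2, Igf2bp2 and Igf2bp3 differed by under 5% between the classes. Clusters differed more. In 250 cells of a cluster led by Krtdap and Krt5, Hmga2 lay at 301 CPM, Igf2bp3 at 78.7 CPM and Igf2bp1 at 49.7 CPM. Clusters with 866 and 603 cells of this library had 693 and 773 CPM of Hmga2, 115 and 142 CPM of Igf2bp3, and 63.8 and 74.6 CPM of Igf2bp1. Igf2bp1 had 63.4 and 77.7 CPM with and without cortical transcripts, and Lin28b 2.60 and 4.20 CPM from 31 and 8 UMIs. With 1 library these values have no replicate check.

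Cells were also divided by RNA of 8 mesenchymal markers (Col1a1, Col1a2, Col3a1, Pdgfra, Pdgfrb, Lum, Dcn and Postn). H19 had more CPM in cells with a marker UMI from E13.5 to NB but not in adult cTEC, and Igf2 had more in them in the E13.5, E15.5 and NB libraries. In adult mTEC, H19 had 1.43 CPM without and 4.76 CPM with a marker in replicate 1, but 8.155 and 6.285 CPM in replicate 2. The 8 summed to between 9.81 and 509 CPM in a library, but in some libraries most of the sum was Dcn, a proteoglycan gene, with 499 of 509 and 310 of 318 CPM in adult cTEC and 28.4 of 35.3 CPM in the NB library. Without Dcn the other 7 summed to between 4.10 and 24.5 CPM. Of the 8 markers, 5 and 6 had UMIs in the adult cTEC libraries. Those with 0 UMIs were Col1a1, Pdgfra and Postn in replicate 1, and Pdgfra and Pdgfrb in replicate 2. At the depth of these libraries 3 UMIs are 1.39 and 0.743 CPM, so a 0 says little. In the NB library, 424 cells held Dcn alone and 60 a UMI of one of the other 7, out of 3436. H19 lay at 7.53 CPM in the NB cells with no marker, 53.4 CPM in those with Dcn alone and 132 CPM in those with another marker, the last from 61 UMIs in 9 of the 60 cells. The thinned shares of cells with H19 were 1.78% (1.33 to 2.34), 8.23% (5.77 to 11.3) and 6.78% (1.88 to 16.5), so the classes with Dcn alone and with another marker did not differ in share beyond counting error. For Igf2 these 3 values were 0.407, 2.97 and 21.7 CPM, from 8, 9 and 10 UMIs in 8, 5 and 3 cells. Hmga2 had 18.02, 19.8 and 21.7 CPM in the same classes.

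The CPM of H19 went the same way at the fetal ages. Cells with none of the 8 markers and cells with at least 1 had 44.9 and 79.3 CPM of H19 at E15.5, and 15.4 and 31.6 CPM at E17.5. The thinned share of cells with H19 differed beyond counting error at E17.5, at 3.46% (3.06 to 3.90) and 6.10% (4.50 to 8.05), but not at E15.5, at 9.86% (8.86 to 10.9) and 10.8% (6.39 to 16.7). At E13.5 the shares overlapped too, at 53.2% (50.8 to 55.6) and 56.2% (46.9 to 65.2). In CPM the E13.5 classes had 321 and 448 CPM of H19, 81.6 and 149.8 CPM of Igf2, and 664 and 524 CPM of Hmga2. For Igf2 at E15.5, cells with no marker had 4.01 CPM, those with Dcn alone 2.70 CPM and those with another marker 15.3 CPM. With the 10 NB cells of at least 5 marker UMIs left out, H19 was 13.6 CPM there. In both adult cTEC libraries the cells with a marker held 0 H19 UMIs, and those without held 9 and 0. The part of stromal RNA in the H19 and Igf2 levels was not tested.

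Thymocyte-like cells gave no clean background. The 169 of them in the NB library, left out of the levels above, held Cd3e at 76.0 CPM but also Psmb11 at 1660 CPM, against 1340 CPM in the NB cells used. After thinning, 28.9% of them held Igf2bp3, 10.2% Igf2bp2, 3.01% H19 and 2.41% Hmga2, at median depths of 8627 UMIs against 6012 in the NB cells used. A share of cells free of cTEC RNA was therefore not available in that library. With no such background, the few Hmga2 and Igf2 UMIs of the adult libraries are not read as expression.

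H19 and Hmga2 also varied within the E17.5 library. A cluster of 1361 cells with haemoglobin UMIs and Cldn8, a tight junction gene, had 57.9 CPM of H19 and 59.95 CPM of Hmga2, against 9.87 and 27.2 CPM in the other cells. Igf2bp2 was at 34.4 and 34.0 CPM in the 2 parts, and Igf2bp3 at 40.8 and 44.4 CPM. Cells were also divided in each library by a UMI of Cldn8. At E13.5 H19 was at 321 CPM without (312 to 331) and 386 CPM with it (357 to 416), and Hmga2 at 652 (638 to 666) and 683 CPM (645 to 724), the latter pair within counting error. H19 was at 45.0 and 60.5 CPM at E15.5, at 14.1 and 30.4 CPM at E17.5, and at 12.4 and 32.4 CPM in the NB library. The corresponding values of Hmga2 were 62.7 and 138 CPM, 26.9 and 55.6 CPM, and 16.2 and 27.9 CPM. H19 thus had more CPM in Cldn8-bearing cells in these 4 libraries, and Hmga2 in the 3 later ones. This split was chosen after the clusters were seen and is given with no test.

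For most pairs, co-detection in the same cells was near what the separate shares give. The observed number of cells with both genes of a pair was divided by the number expected if the genes were independent within a library, for pairs with at least 5 expected cells after thinning to 3000 UMIs. Over 43 such pairs the median ratio was 1.03, the range was 0.702 to 1.93, and 28 pairs lay above 1. The highest was H19 with Hmga2, at E17.5, and it was the same pair at E15.5 with cells thinned to 1500 UMIs (1.61). With cells thinned to 5000 UMIs or not thinned, the highest ratios were 3.79 and 3.26, both of Igf2 with H19 at E15.5. At E13.5, the 17 pairs had a median of 1.02. The highest there was Igf2 with H19, in 248 cells against 192 expected, a ratio of 1.29. It was 1.35 among the cells with a Psmb11 or Prss16 UMI and 1.007 among those without, and 1.31 with collagen-bearing cells left out.

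The 2 RNAs of the imprinted locus, Igf2 and H19, were found together well beyond their separate shares in the E15.5 and NB libraries, in pairs that fell under the minimum of 5 expected cells. At E17.5 and in adult mTEC 0 cells held both, against 0.0740, 0.0133 and 0.00870 expected, too few to tell. At E15.5, 25 of the 39 cells with Igf2 also held H19, against 3.86 expected, a ratio of 6.48. Among E15.5 cells with no mesenchymal marker UMI it was 22 cells against 3.55. In the NB library, 5 of 11 Igf2 cells held H19, against 0.294 expected, and in NB cells with no marker UMI 0 of 4 did, against 0.0714 expected. In NB cells with none of the 7 markers other than Dcn, 3 of 8 did, against 0.208 expected. These pairs were singled out after their values were seen.

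H19 and Hmga2 had more shared cells than expected in 3 later libraries. At E15.5, 80 cells held both against 57.9 expected (1.38), and at E17.5, 49 cells against 25.4 expected (1.93). In the NB library it was 10 cells against 4.94 expected (2.02), just under the minimum. In the haemoglobin and Cldn8 cluster at E17.5 the ratio was 1.27, and among the other cells 1.76. At E15.5 Igf2 with Hmga2 had a ratio of 1.83, from 12 cells against 6.55 expected. Among NB pairs above the minimum the highest ratio was that of H19 with Igf2bp2, 1.32. Cells are not replicates, and the ratios carry no p.

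**Figure D3:**
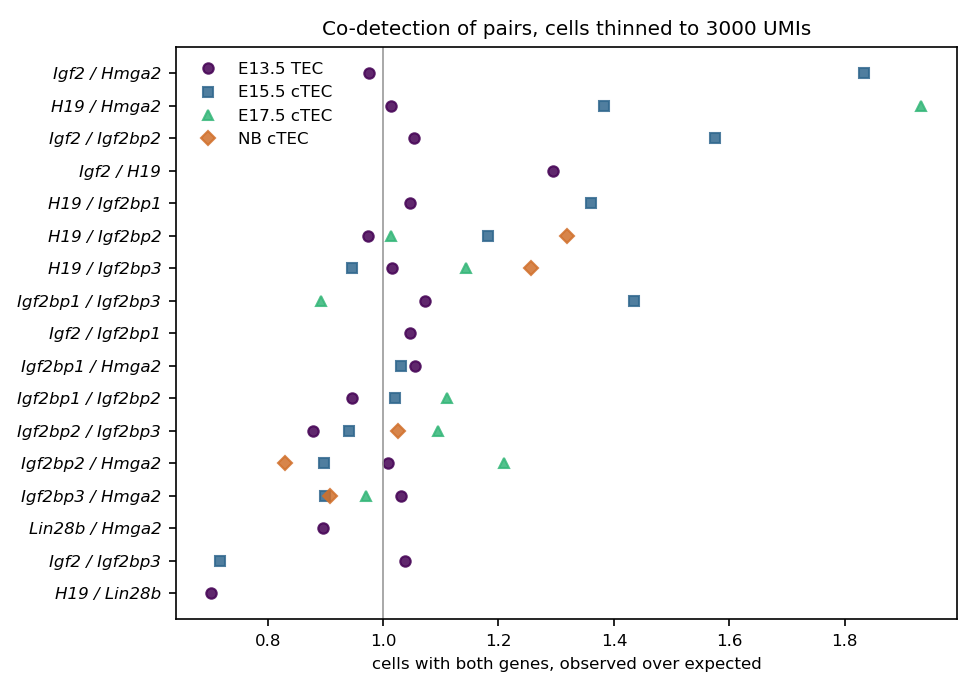
Observed over expected number of cells with both genes (linear axis) for each pair with at least 5 expected cells, by library, after thinning to 3000 UMIs; each row is a pair, each symbol a library, and the line marks 1. The 43 values run from 0.702 for H19 with Lin28b at E13.5 to 1.93 for H19 with Hmga2 at E17.5.

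Whether the members were higher in cycling cells was asked by splitting each E13.5 or cortical library by a UMI of Top2a, a topoisomerase made in S to M phase. Of 13793 genes tested by edgeR with the library as a block, 24.3% passed in either direction, so a call in this comparison is common. All 7 members were tested, and 3 passed. Cells with Top2a were deeper, with a median of 8562 against 5796 UMIs at E13.5, and CPM removes this difference in total only.

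Hmga2 was higher in cells with Top2a at every age where it was abundant. Its level was 511 CPM without and 720 CPM with Top2a at E13.5, 53.6 and 95.9 CPM at E15.5, 27.8 and 42.4 CPM at E17.5, and 16.6 and 27.4 CPM in the NB library. The edgeR estimate was 0.64 (SE 0.0725, adjusted p = 8.45e-06), and the call held under every alternative run. Igf2bp1 rose by less, from 58.4 to 72.7 CPM at E13.5, 8.62 to 11.8 CPM at E15.5 and 1.84 to 2.26 CPM at E17.5, with an edgeR estimate of 0.37 (SE 0.12, adjusted p = 0.0366). Without the 5% of cells with the most UMIs, it lost its call (adjusted p = 0.0833).

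Igf2 went the other way at the 2 earliest ages, from 112 CPM without to 74.1 CPM with Top2a at E13.5 and from 4.76 to 3.75 CPM at E15.5. In the NB library Igf2 had 1.08 CPM without and 1.66 CPM with Top2a, from 21 and 6 UMIs, and at E17.5 it had 1 UMI in each class. Its edgeR estimate of -0.45 (SE 0.153, adjusted p = 0.0495) was just past the threshold and was lost without the deepest 5% of cells (adjusted p = 0.144), without cells bearing collagen UMIs (adjusted p = 0.0907) and when cycling cells needed 2 or more Top2a UMIs (adjusted p = 0.126). H19 was 369 CPM without and 311 CPM with Top2a at E13.5, but 40.5 and 55.9 CPM at E15.5, 14.99 and 22.0 CPM at E17.5, and 14.7 and 23.2 CPM in the NB library. Over the 6 libraries it did not pass (edgeR estimate 0.28, SE 0.116, adjusted p = 0.101). It did when cycling cells needed 2 or more Top2a UMIs (0.50, edgeR adjusted p = 0.0324). Igf2bp3 had an edgeR estimate near 0 (SE 0.0651, adjusted p = 0.996), with 111 and 124 CPM at E13.5, 79.2 and 77.8 CPM at E15.5, 44.3 and 42.9 CPM at E17.5, and 90.4 and 91.8 CPM in the NB library.

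**Figure D4:**
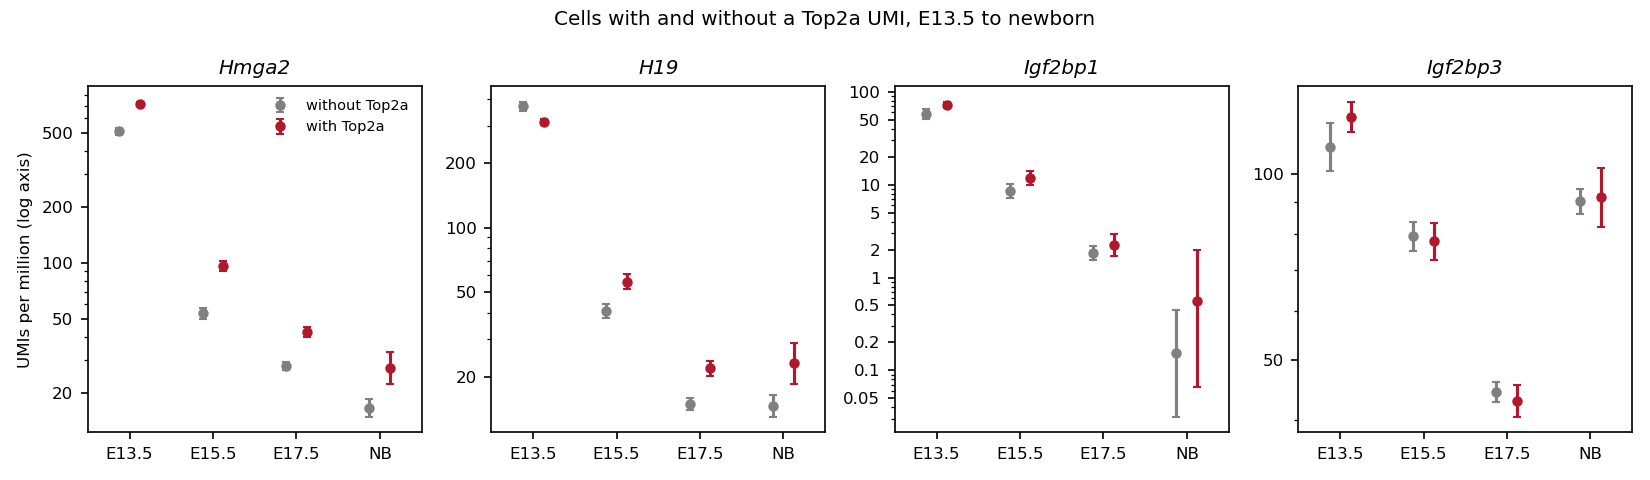
Levels (UMIs per 1000000, log axis, a range of its own in each panel) of Hmga2, H19, Igf2bp1 and Igf2bp3 in cells without (grey) and with (red) a Top2a UMI, for E13.5, E15.5, E17.5 and NB; bars are 95% Poisson intervals. Hmga2 rises in the E13.5, E15.5, E17.5 and NB libraries (511 to 720 CPM at E13.5), and Igf2bp3 moves from 111 to 124 CPM at E13.5 and from 79.2 to 77.8 CPM at E15.5.

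In the adult, cTEC and mTEC were compared with edgeR over 4 libraries with the data set as a covariate. Of 15627 genes, 5063 or 32.4% passed in either direction. These tests share the adult cTEC libraries with the slope over age. Among the members 5 were tested and 4 passed, Igf2 and Hmga2 being too low. Igf2bp1 and Lin28b, with 2 and 0 UMIs in adult cTEC, passed the filter on low counts only through mTEC, so the count of calls is not read against the 32.4%. Igf2bp2 and Igf2bp3 were higher in cTEC, by 1.80 log2 units (SE 0.519, adjusted p = 0.00448) and 2.21 log2 units (SE 0.407, adjusted p = 8.68e-06). Igf2bp3 was higher in cTEC than in mTEC within each data set. Leaving out any of the 4 libraries left 1 library in a lineage, so no call of Igf2bp3 is read from such fits.

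Igf2bp1 had an edgeR estimate of -3.35 for cTEC against mTEC (SE 1.14, adjusted p = 0.0173). Since it entered the test only through mTEC, this value is not read as a result. The level in mTEC was 4.42-fold that in cTEC in data set 1 (1.18 to 37.2, from 2 UMIs in cTEC) and at least 3.46-fold between the libraries of data set 2. The thinned shares of cells with it in data set 1 overlapped, at 0.761% in mTEC (0.394 to 1.33) and 0.293% in cTEC (0.00742 to 1.62). Lin28b had 0 UMIs in both cTEC libraries, and its level in mTEC was at least 3.02-fold higher in data set 2. The edgeR value of Lin28b (adjusted p = 0.0184) is not read as a result, since a gene that entered the test only through its high group had to differ. The depth of adult cTEC replicate 1, where 3 UMIs are 1.39 CPM, was too low to set the 1.14 CPM of mTEC apart. The calls of Igf2bp1 and Igf2bp2 were lost without the data set covariate (adjusted p = 0.0722 and 0.0695) and with DESeq2 (adjusted p = 0.215 and 0.106), and DESeq2 gave no adjusted p for Lin28b. Fits that left out 1 of the 4 libraries and dropped the data set covariate left 1 library in a lineage. No call of Igf2bp1, Igf2bp2 or Lin28b is read from them. Lin28b gave no value without either mTEC library.

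H19 did not pass between the adult lineages by edgeR (-1.68, SE 0.901, adjusted p = 0.152). In data set 1 the mTEC level was 0.606 times the cTEC level (0.291 to 1.42), all the H19 of that cTEC library lying in 1 cell. In data set 2 it was at least 10.1-fold higher in mTEC. In adult mTEC the order of the members was therefore Igf2bp3 first, with Igf2bp2, Igf2bp1 and H19 next and changing places between the 2 libraries. Igf2bp3 in mTEC was at 0.170 and 0.247 times its cTEC level.

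Within adult mTEC, cells with and without an Aire UMI were compared among cells without Top2a. There were 730 cells without and 657 with Aire in replicate 1, and 1199 and 2902 in replicate 2. Lin28b had 0 UMIs without and 17 with Aire in replicate 1 (0 and 2.14 CPM), and 7 and 97 in replicate 2 (0.812 and 2.77 CPM). Igf2bp1 went from 3 to 63 UMIs (0.537 to 7.93 CPM) and from 9 to 106 UMIs (1.04 to 3.03 CPM). Both genes had more CPM in the Aire class of both libraries. H19 went from 0.716 to 4.78 CPM in replicate 1 and from 8.93 to 10.4 CPM in replicate 2.

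Igf2bp2 and Igf2bp3 had lower CPM in the Aire class of both libraries. Igf2bp2 went from 6.62 to 3.15 CPM and from 4.06 to 1.95 CPM, and Igf2bp3 from 17.4 to 10.1 CPM and from 17.4 to 11.6 CPM. No member passed the test in this comparison. By edgeR, 0 of 15356 genes did (0.0%), with 3852 at an unadjusted p below 0.05, 0 with DESeq2 size factors in the same test, and 1 with no filter on low counts. Aire itself is the gene that defined the classes. The edgeR estimates were 2.53 for Igf2bp1 (SE 0.742, adjusted p = 0.17), 2.65 for Lin28b (SE 1.05, adjusted p = 0.224), 1.08 for H19 (SE 0.663, adjusted p = 0.363), -1.06 for Igf2bp2 (SE 0.393, adjusted p = 0.209) and -0.67 for Igf2bp3 (SE 0.246, adjusted p = 0.205). The estimate for H19 was -0.02 when the Aire class needed 3 or more UMIs.

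Cells with Aire were deeper, with medians of 11640 against 7200 UMIs and 11700 against 6811 UMIs. After thinning to 3000 UMIs, Lin28b was found in 0 and 0.613% of cells without and with Aire in replicate 1, and in 0.192% and 1.05% in replicate 2. For Igf2bp1 the thinned shares were 0.138% and 1.38%, and 0.383% and 0.736%. Thinned cells of other ages gave 18.6% for Igf2bp1 at E13.5, so the adult mTEC with this RNA were few.

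Over all adult mTEC, cells with Aire held 63.5% of all UMIs in replicate 1 and 83.7% in replicate 2. They held 19 of 19 Lin28b UMIs in replicate 1, or 100% (82.4 to 100, exact binomial), and 144 of 151 in replicate 2 (95.4%). For Igf2bp1 they held 65 of 68 (95.6%) and 162 of 173 (93.6%). For H19 the shares were 90.5% and 83.6%, the second at the share of all UMIs. For Igf2bp2 they were 47.4% and 73.9%, and for Igf2bp3 48.3% and 76.8%, below the share of all UMIs in both libraries. UMIs of one cell are not independent, so the intervals are too narrow. Pairs of members were rarely in the same adult mTEC, where no pair reached 5 expected cells after thinning.

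**Figure D5:**
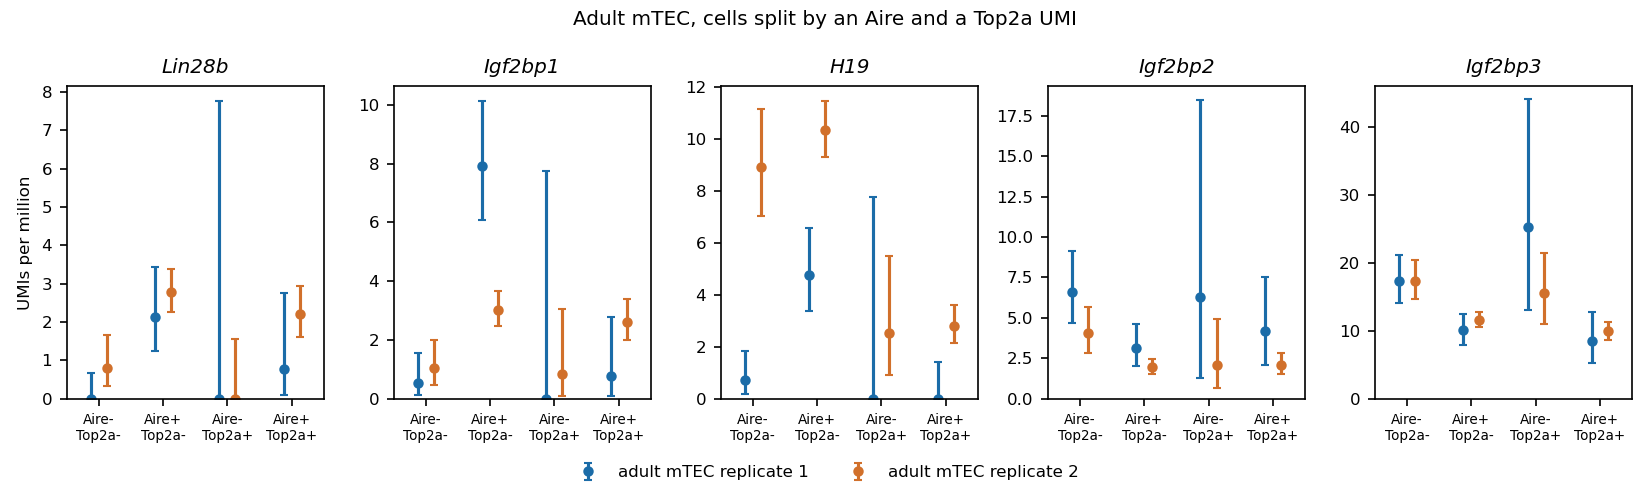
Levels (UMIs per 1000000, linear axes of their own) of Lin28b, Igf2bp1, H19, Igf2bp2 and Igf2bp3 in adult mTEC split by an Aire and a Top2a UMI, for both libraries; bars are 95% Poisson intervals. Among cells without Top2a, Lin28b and Igf2bp1 have more CPM with Aire in both libraries (Igf2bp1 0.537 to 7.93 and 1.04 to 3.03 CPM), and Igf2bp2 and Igf2bp3 have less. The intervals of the thinned shares of cells with Lin28b or Igf2bp1 overlap between these classes, except for Lin28b in replicate 2.

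Between adult mTEC with and without Top2a, 1 of 17173 genes passed by edgeR (0.00582%), and this was no member. H19 went from 3.10 to 0 CPM in replicate 1 and from 10.1 to 2.78 CPM in replicate 2, with an edgeR estimate of -2.04 (SE 0.562, adjusted p = 0.167). Few cells carried these levels, as given above for the top 5 cells. After thinning, the share of replicate 2 cells with H19 was 0.898% without (0.626 to 1.246) and 0.798% with Top2a (0.413 to 1.39), a difference within counting error. With no filter on low counts it passed (edgeR adjusted p = 0.0182).

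As a description over the 8 libraries, the genes whose log2 CPM followed each member most closely were listed among 8540 candidates. For Hmga2 they were Zcchc3 (r = 0.993), Mfap2 and Med4, and for Igf2bp3 Zfp608 (r = 0.995), Epm2aip1 and Matr3. Igf2bp2 was followed by Setd5 (r = 0.986), Igf2bp1 by Gtf3c2 (r = 0.981) and H19 by Hist1h1e (r = 0.983), a linker histone gene. Lin28b was followed by Hbb-y (r = 0.969), an embryonic globin gene that peaked at 45.4 CPM in adult mTEC replicate 2. No gene is named for Igf2, whose levels cannot be compared between the data sets. The other 5 genes named with r peaked at E13.5, as did the members they followed. With so many candidates and 8 points that share depth and gene list by data set, such values of r arise easily.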

How the data were processed

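The authors sorted TEC, made 10x Genomics v2 libraries and deposited UMI counts per gene and cell, not normalized (bcl2fastq 2.17, STAR 2.5.1b and Cell Ranger 2.0.1 on mm10 per the labels and methods; the data set 2 matrices carry a Cell Ranger 3.0.1 header). The gene lists hold 27998 and 31053 genes. Cells with over 5% mitochondrial UMIs or over 5000 genes were dropped, leaving 25750 of 28334. No doublet caller was run; leaving out the deepest 5% of cells was an alternative. Cells were clustered (scanpy 1.11.5, 2000 variable genes, 20 components, resolution 0.8), and thymocyte-like and parathyroid-like clusters were removed. Counts were summed per library, or per library and cell class, and tested with edgeR 4.0.16 (filterByExpr, TMM, quasi-likelihood, library or data set as covariate, Benjamini-Hochberg at 0.05); DESeq2 1.42.0 was an alternative. Scripts were tested on simulated data. Named genes were the members, the top 2 called genes of each list in the slope over age, and the 3 most similar genes per member, of which the first is named for some. Members and lists were chosen with earlier results of these data known. Nothing says that replicate libraries came from separate animals, so their spread may be technical. In these sums, fewer positive cells and less RNA per cell cannot be told apart; shares of cells are given for that reason. The labels give the tissue as thymus, while a protocol line names bone marrow.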

Additional observations from a re-analysis of the deposited data

Results flagged for a closer look

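H19 was singled out in 3 contrasts, none of which was tested; values are log2 ratios of CPM with 0.5 added. The ratio of cells with to cells without Top2a was 0.46, 0.54 and 0.64 at E15.5, E17.5 and NB but -2.85 and -1.69 in the adult mTEC libraries, a mean difference of 2.82. The mTEC ratios rest on few cells: 1 cell held 23 of 42 H19 UMIs in replicate 1 and 1 cell 61 of 505 in replicate 2, and the thinned share of cells with H19 in replicate 2 was 0.898% without and 0.798% with Top2a. The same ratio was -0.25 at E13.5, which is -0.79 from the mean of the later cortical libraries. The ratio of adult cTEC to adult mTEC was 0.63 in data set 1, where 1 cell held all cTEC H19, and -4 in data set 2, a difference of 4.63.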

How the results depend on the processing

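The slope over age passed for 1083 genes, and for 2835 with DESeq2, 438 with data set 1 only, 0 with data set 1 only and no adult cTEC replicate 1 (2631 at an unadjusted p below 0.05), and 16 to 460 without 1 adult cTEC library. For the members 78 alternative values kept their side of the threshold and 12 lost the call: Igf2 without E13.5 (-1.24), Igf2bp2 in data set 1 only (-0.53), Igf2, H19, Igf2bp2 and Hmga2 without adult cTEC replicate 1, Igf2bp2 without replicate 2, and with data set 1 only and no adult cTEC replicate 1 Igf2 (-2.01), H19 (-1.36), Igf2bp1 (-2.72), Igf2bp2 (-0.407) and Hmga2 (-1.63). Over both fits without 1 adult cTEC library the slopes were -1.98 to -2.02 for Igf2, -1.42 to -1.55 for H19, -0.53 to -0.60 for Igf2bp2 and -1.82 to -1.85 for Hmga2. In the Top2a comparison of the cortical libraries 4 member calls were lost, 3 of Igf2 and 1 of Igf2bp1, all given above. Adult cTEC against mTEC passed for 5063 genes, for 2604 with DESeq2 and for 1528, 2417, 2673 or 2874 without 1 library, where the data set term was dropped; Lin28b could not be fitted in some of these. Top2a in adult mTEC passed for 1 gene, for 226 with DESeq2 size factors, 1924 with no filter, 1441 with all cells, 2797 with 2 or more Top2a UMIs and 1221 among Aire cells only. Aire passed for 0 genes, and for 1 with no filter. The median co-detection ratio was 1.09 without thinning. The cause of these changes was not tested. No member changed direction under a call. No paired analysis was possible because replicate numbers, given in accession order, carry no pairing beyond the data set, which is a term in the adult fit already. Leaving out collagen-bearing cells, leaving out 1 adult library with the data set term dropped, leaving out the top cell and fitting data set 1 without its adult library were chosen after seeing the data. Depth limits the adult cTEC values most, where 3 UMIs are 1.39 and 0.743 CPM.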
